A study of Drosophila melanogaster with 12 samples.

Results

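miR-9c is an abundant microRNA of Drosophila melanogaster ovaries. It was taken here as every listed sequence that begins with the leading 18 nt of its 22 nt form, the form with 403350 reads in total RNA of krimp heterozygous ovaries. The rule found 19 sequences among the 95922 distinct sequences listed in 12 small RNA libraries. The libraries were made to study Krimper (the krimp gene product), a germline Tudor domain protein, in the piRNA pathway. Of the 12 libraries, 9 came from adult ovaries and 3 from OSC, an ovarian somatic cell line. Total RNA was sequenced from krimp mutant and from krimp heterozygous ovaries, and the labels call the heterozygotes controls. Piwi and Aub immunoprecipitates came from both genotypes, and an AGO3 immunoprecipitate from heterozygous ovaries. AGO3 was also immunoprecipitated from aub mutant ovaries and from OregonR wild-type ovaries. The OSC libraries came from krimp knockdown cells that expressed myc-tagged Aub, AGO3 or Piwi. The labels name no krimp or aub allele and no age of the flies, and mRNA was not measured, so the genotypes rest on the labels. With a single library per group, nothing could be tested across libraries. Intervals are exact Clopper-Pearson 95% intervals for shares, or 95% intervals for ratios of shares, and cover counting error only, because PCR reads without molecular identifiers are not independent molecules.

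MicroRNAs are cut from hairpin precursors by Dicer and loaded into an Argonaute protein, AGO1 in most cases in flies. The loaded strand finds its messenger RNA targets mainly through the seed, bases 2 to 8 counted from the 5′ end. Piwi, Aub and AGO3 belong to the other branch of the Argonaute family and bind piRNAs, which are longer, are made without Dicer and silence transposons in the gonad. miR-9c belongs to the miR-9 family, which has the same seed as vertebrate miR-9. Its Drosophila relative miR-9a is known for repressing senseless during sensory organ development. In the Release 6 annotation the genes mir-9c, mir-306, mir-79 and mir-9b neighbour each other in that order on chromosome arm 2L, within grp (grapes, the fly Chk1 checkpoint kinase gene). The gene mir-9a lies apart, on 3L.

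The 3 family members are shown by their most abundant listed sequence in heterozygous total RNA, followed by the 3 other most informative miR-9c forms, since the length results turn on their 3′ ends. All are read from the deposited sequences, with T in place of U and the seed in capitals.
miR-9c, 22 nt form: tCTTTGGTattctagctgtaga
miR-9b, 22 nt: tCTTTGGTgattttagctgtat
miR-9a, 23 nt: tCTTTGGTtatctagctgtatga
miR-9c, 21 nt form: tCTTTGGTattctagctgtag
miR-9c with AA added: tCTTTGGTattctagctgtagaaa
miR-9c with T added: tCTTTGGTattctagctgtagat
The miR-9 sequences share their leading 8 bases, the seed included, and part at base 9. A read was given to miR-9c by its 18 nt prefix. For miR-9b and miR-9a the rule was looser: the leading 8 bases, then G or T at base 9, and bases 13 to 18 of miR-9c further on. Base 9 thus keeps them apart. No hairpin sequence was used, so an added base at the 3′ end was not told apart from a base of the precursor.

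A second set of sequences lacks or changes base 1 or base 2. They do not begin with the 18 nt of miR-9c and are counted apart from it, and they are shown because the loss of a leading base moves the seed. Changes are written with the base of the 22 nt form, its position from the 5′ end, and the base found, or del where it is absent.
miR-9c C2del: tTTTGGTAttctagctgtaga
miR-9c with bases 1 and 2 absent: tTTGGTATtctagctgtaga
miR-9c C2T: tTTTTGGTattctagctgtaga
miR-9c T1del: cTTTGGTAttctagctgtaga
The C2del sequence is also what a loss of base 1 together with C2T would give, so these 2 readings cannot be told apart.

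In total RNA miR-9c had 248117 reads of 20695092 listed reads in krimp mutant ovaries and 605033 of 24979879 in heterozygous ovaries. This was 1.20% (1.19 to 1.20%) of listed reads in mutants and 2.42% (2.42 to 2.43%) in heterozygotes. The share was 2.02-fold lower in mutants, a log2 ratio of -1.01 (-1.02 to -1.01). Each file lists sequences with at least 100 reads, so its sum is not the library's depth. MicroRNAs as a class, counted from a list of 67 names, were 27.5% of listed reads in mutants and 37.4% in heterozygotes. A fragment of 2S rRNA took 4.92% of listed reads in mutants and 2.51% in heterozygotes, and without it the miR-9c log2 ratio was -0.98.

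Set against microRNA reads alone, the miR-9c difference was smaller. miR-9c was 4.36% (4.34 to 4.38%) of microRNA reads in mutants and 6.47% (6.46 to 6.49%) in heterozygotes, a log2 ratio of -0.57 (-0.58 to -0.56). It ranked 6 among 54 listed microRNAs by reads in mutants and 4 among 54 in heterozygotes. In whole ovaries, fewer cells of a type and less RNA per cell cannot be told apart, and the labels give neither the size nor the stage of the ovaries.

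miR-9c lay near the low end of the microRNAs measured in the same pair of libraries. Of 53 microRNAs listed in both, 33 had a lower and 20 a higher share of listed reads in mutants, and their median log2 ratio was -0.25, within a range of -1.25 to 1.56. Among microRNAs, 7.55% (4 of 53) were at least 2-fold lower in mutants by share of listed reads, and miR-9c was one of them. The others were miR-318, miR-999 and miR-33, with log2 ratios of -1.06, -1.12 and -1.25, each below that of miR-9c. By share of microRNA reads, 18 of 53 were lower and 35 higher, the median was 0.20, and 0% were at least 2-fold lower. The log2 ratio of miR-9c minus the median was -0.77, a distance that a change of denominator cannot alter.

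**Figure D1:**
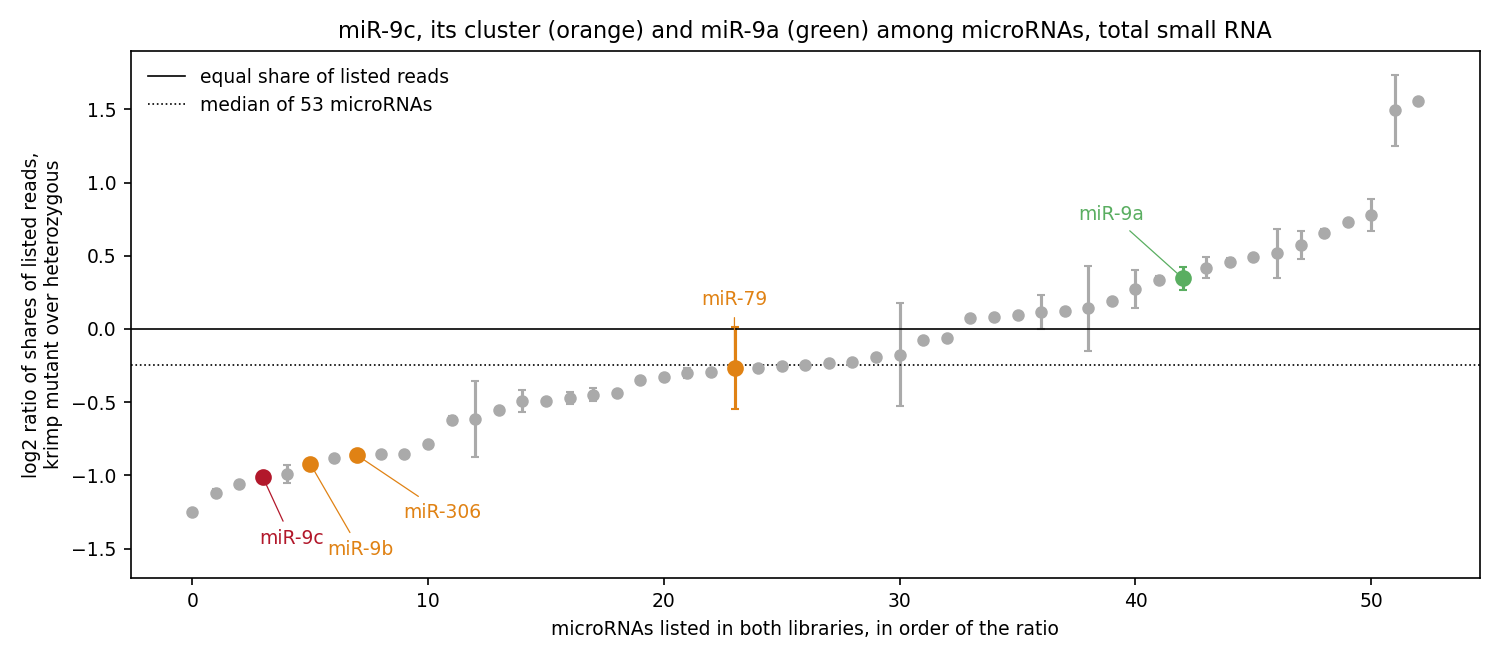
Each point is 1 microRNA listed in both total libraries, placed in order of its log2 ratio of shares of listed reads, krimp mutant over heterozygous (vertical axis); bars are 95% intervals for counting error. miR-9c at -1.01, miR-9b at -0.92 and miR-306 at -0.86 sit together at the low end, miR-79 at -0.27 lies near the median of -0.25, and miR-9a at 0.35 lies above 0.

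The neighbours of mir-9c on 2L also had lower log2 ratios, near that of miR-9c for miR-9b and miR-306 and closer to 0 for miR-79. miR-9b had 34773 reads or 0.168% of listed reads in mutants and 79413 reads or 0.318% in heterozygotes, a log2 ratio of -0.92. miR-306, which has another seed, had 28802 reads or 0.139% of listed reads in mutants and 63262 reads or 0.253% in heterozygotes, a log2 ratio of -0.86. miR-79 had 173 reads in mutants and 251 in heterozygotes, all of 1 sequence, and its log2 ratio of -0.27 had an interval of -0.54 to 0.01 that includes 0. At these depths miR-79 also stands close to the minimum of 100 reads, so any forms under it are missing from its sum.

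Within the cluster miR-9c was the most abundant by far, and its proportion to miR-9b and miR-306 moved little. There were 7.14 miR-9c reads per miR-9b read in mutants and 7.62 in heterozygotes. For each miR-306 read there were 8.61 miR-9c reads in mutants and 9.56 in heterozygotes. miR-79 differed, with 1434 miR-9c reads per read in mutants and 2410 in heterozygotes.

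miR-9a, the family member from 3L, went the other way. It had 2595 reads or 0.0125% of listed reads in mutants and 2463 reads or 0.00986% in heterozygotes, a log2 ratio of 0.35 (0.27 to 0.43). Accordingly there were 95.6 miR-9c reads per miR-9a read in mutants and 246 in heterozygotes. miR-9c thus made up most reads with the miR-9 seed in both genotypes, with miR-9b next and miR-9a a trace. All reads of miR-9a came from 3 sequences, and those of miR-9b from 12.

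miR-9c was listed in 14 forms in mutants and 19 in heterozygotes, and all 14 were shared. The 22 nt and 21 nt forms together made 93.2% of miR-9c reads in mutants and 93.1% in heterozygotes, but their balance differed. The 22 nt form had 183183 reads in mutants, 73.8% (73.7 to 74.0%) of miR-9c, and 403350 in heterozygotes, 66.7% (66.5 to 66.8%). The 21 nt form, which lacks the final A, had 47990 reads in mutants, 19.3% (19.2 to 19.5%), and 160195 in heterozygotes, 26.5% (26.4 to 26.6%). This gave 0.262 reads of 21 nt per read of 22 nt in mutants and 0.397 in heterozygotes.

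The 20 nt form, without the final GA, was rare at 447 reads or 0.180% in mutants and 516 reads or 0.0853% in heterozygotes. It is also the shortest length that any file lists, so shorter ends of miR-9c are not seen. Relative to all listed reads, the 22 nt form was 0.548 times as high in mutants as in heterozygotes and the 21 nt form 0.362 times as high. The 20 nt form was 1.05 times as high. The ratio between the genotypes thus differed among the forms.

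Longer forms carried mostly A. The form with AA had 8306 reads in mutants, 3.35% of miR-9c, and 24115 in heterozygotes, 3.99%. With a single A there were 2211 reads in mutants, 0.891%, and 5936 in heterozygotes, 0.981%. The form with AA thus outnumbered that with A by 3.76 to 1 in mutants and 4.06 to 1 in heterozygotes. AAA was found in 917 mutant reads and 2198 heterozygous reads, and AAAA in 142 mutant reads and 268 heterozygous reads. Forms with only A added came to 4.67% (4.58 to 4.75%) of miR-9c in mutants and 5.37% (5.32 to 5.43%) in heterozygotes.

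Addition of T was less common and differed in the opposite direction. The form with T had 3833 reads in mutants, 1.54% (1.50 to 1.59%) of miR-9c, and 5367 in heterozygotes, 0.887% (0.864 to 0.911%). TT was found in 149 mutant reads and 158 heterozygous reads, and TA in 386 mutant reads and 784 heterozygous reads. Forms with only T added were 1.60% of miR-9c in mutants and 0.913% in heterozygotes, 1.76 times as high. Of the named longer forms, those with T and TT lost the least share of listed reads in mutants or gained, at 0.862 times the heterozygous level for T and 1.14 times for TT.

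**Figure D2:**
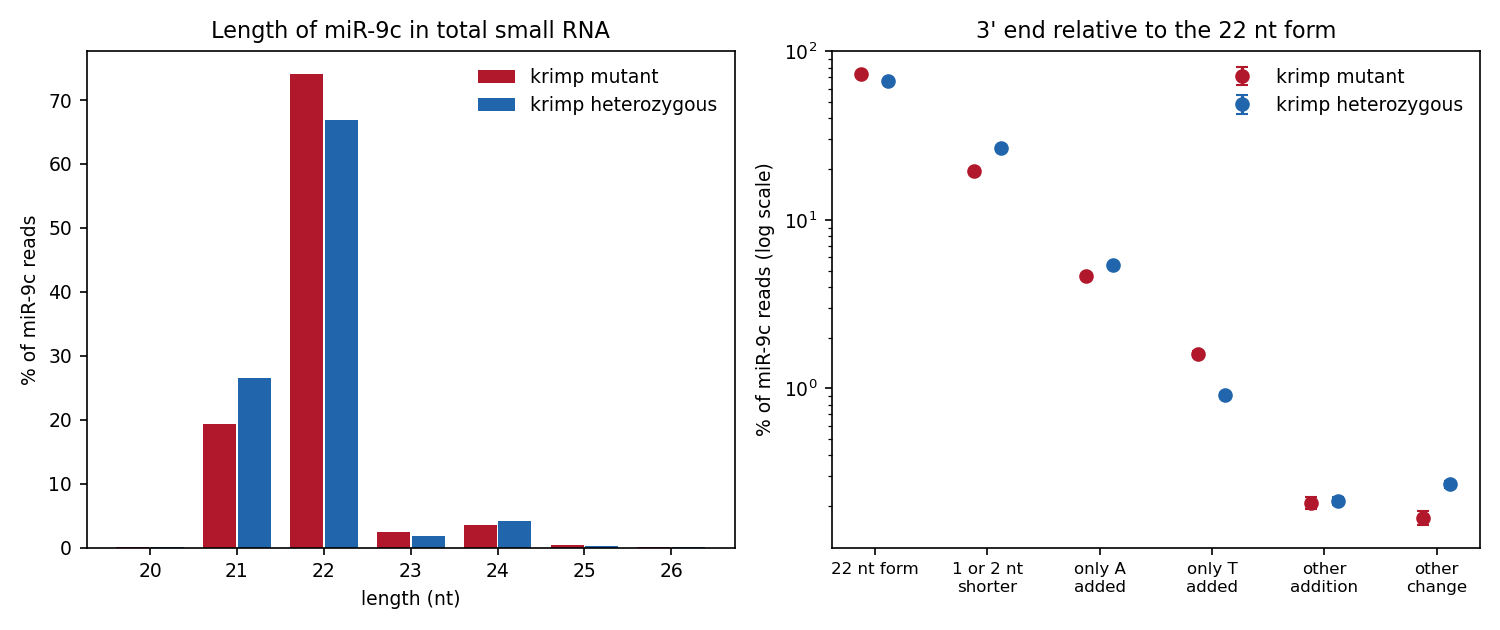
Left, the percent of miR-9c reads at each length from 20 to 26 nt in total RNA of krimp mutant and heterozygous ovaries, as bars. Right, the percent of miR-9c reads in 6 kinds of 3′ end relative to the 22 nt form on a log axis, with exact 95% intervals for counting error; mutants are higher for the 22 nt form (73.8% against 66.7% in heterozygotes) and for T (1.60% against 0.913% in heterozygotes), and lower for the shorter forms (19.5% against 26.6% in heterozygotes).

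The remaining forms were minor. The final A was replaced by C, T or G in 149, 128 and 144 mutant reads and in 368, 348 and 296 heterozygous reads. The form with an added C had 132 reads in mutants and 216 in heterozygotes. The 5 forms listed only in heterozygotes had 121 to 265 reads there. At the same proportion of miR-9c, 4 of them would fall under 100 reads in mutants, so their absence there says little. The fifth, a 21 nt form with 265 reads, was 0.0438% of miR-9c in heterozygotes, just above the 0.0399% that 99 mutant reads would give.

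Mean length was 21.91 nt in mutants and 21.85 nt in heterozygotes, a difference of 0.0635 nt. Other microRNAs moved by as much. Among 46 microRNAs that reached 1000 reads in both libraries, the difference had a median of 0.0303 nt and ran from -0.493 to 0.40 nt, and 20 exceeded miR-9c. In mutants, the share with A added was lower in 19 of the 46 and the share with T added higher in 24. The rest include microRNAs with no such form listed in either library, which can be neither higher nor lower. Examples are miR-9b for T, miR-9a for A and miR-275 for both, so the counts are not an even split. Over all 46 the median share with A added was 1.99% in mutants and 2.46% in heterozygotes, and with T added 0.711% in mutants and 0.514% in heterozygotes. miR-9c ranked 19 of 46 by its share with A added in both genotypes, while miR-306 ranked 1, at 41.4% in mutants and 44.7% in heterozygotes.

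In mutants the main form took a smaller share of miR-9b reads but a larger share of miR-9a reads, as it did in miR-9c. In miR-9b, reads of 22 nt were 56.6% (56.1 to 57.2%) in mutants and 73.3% (72.9 to 73.6%) in heterozygotes, and reads of 23 nt were 27.4% in mutants and 15.2% in heterozygotes. In miR-9a, reads of 23 nt were 60.2% (58.3 to 62.1%) in mutants and 49.9% (47.9 to 51.9%) in heterozygotes. Its 21 nt reads were 19.2% in mutants and 28.2% in heterozygotes. For miR-306, 21 nt reads were 33.5% in mutants and 32.6% in heterozygotes. None of these differences has a replicate check.

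Sequences with another 5′ end together differed more between the genotypes than any 3′ form listed in both. They had 1164 reads in 3 forms in mutants and 44269 reads in 13 forms in heterozygotes. Per 1000 miR-9c reads this was 4.69 in mutants and 73.2 in heterozygotes, 15.6-fold lower in mutants. With each of the 10 sequences not listed in mutants set at 99 reads, the most the files allow, it was at least 8.43-fold lower. None of the 13 was listed in any of the other 10 libraries. At these proportions to the miR-9c reads listed there, each would fall under 100 reads, so this absence says little.

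C2del carried most of this. Its sequences had 447 reads or 1.80 per 1000 miR-9c reads in mutants and 30220 reads or 49.9 per 1000 in heterozygotes, at least 16.7-fold lower in mutants. The printed 21 nt sequence alone had 447 mutant reads and 29484 heterozygous reads, which puts it above the AA form in heterozygotes. Its bases 2 to 8 read TTTGGTA, the miR-9c seed moved by 1 base. Sequences with bases 1 and 2 absent had 717 reads or 2.89 per 1000 in mutants and 10598 reads or 17.5 per 1000 in heterozygotes, at least 4.75-fold lower in mutants. One of them, a 22 nt sequence that ends in TT, went the other way, with 193 reads or 0.778 per 1000 in mutants and 316 reads or 0.522 per 1000 in heterozygotes.

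The other 5′ variants were listed in heterozygotes only. C2T had 2294 reads there, or 3.79 per 1000 miR-9c reads, against a limit of 0.399 per 1000 in mutants, so it was at least 9.50-fold lower in mutants. T1del had 606 reads, at least 1.26-fold lower in mutants, and T1C had 392 reads, at least 1.62-fold lower. T1G had 159 heterozygous reads, too few for a difference to be detectable at this depth.

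**Figure D3:**
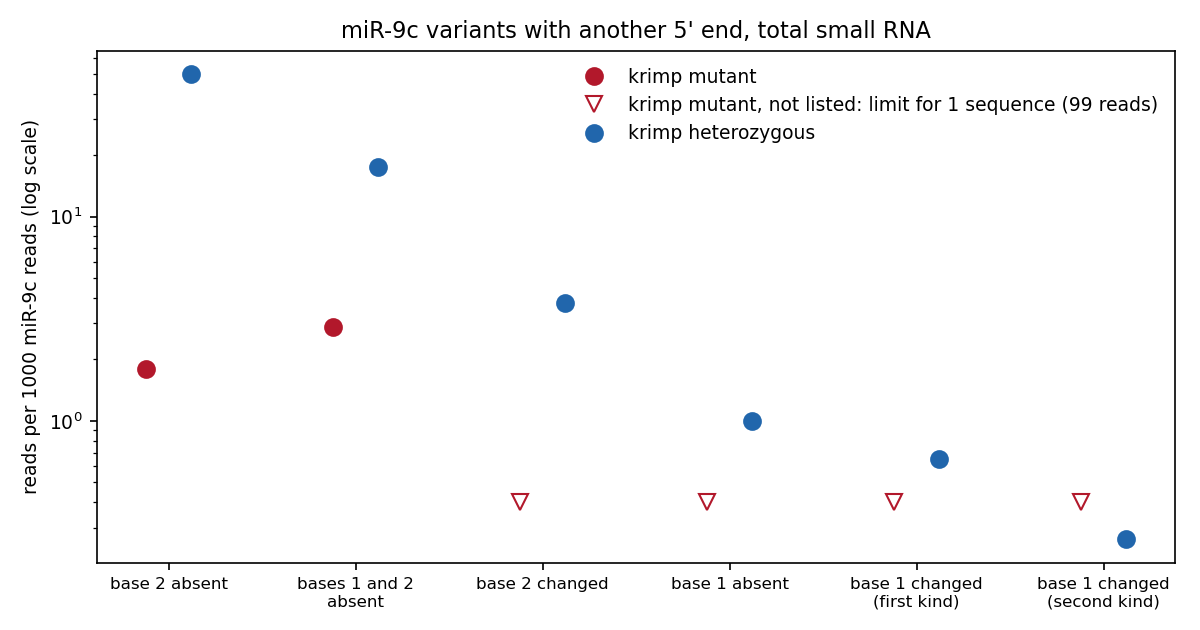
Reads per 1000 miR-9c reads (log axis) of 6 kinds of sequence that differ from miR-9c at base 1 or 2, in total RNA of krimp mutant and heterozygous ovaries; open triangles are the limit of 0.399 that 99 reads of 1 unlisted sequence would give. Sequences without base 2 stand at 1.80 in mutants and 49.9 in heterozygotes, and those without bases 1 and 2 at 2.89 in mutants and 17.5 in heterozygotes.

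A loss of base 2 was rare among the other microRNAs in which its position was unambiguous. The loss could be placed at base 2 without ambiguity for 30 other microRNAs with at least 1000 reads. Of these it was listed for 1 in heterozygotes and for 0 in mutants. This was miR-989, with 475 heterozygous reads or 7.90 per 1000 of its own reads. Where the position was ambiguous, miR-125, miR-184 and miR-8 had such sequences in heterozygotes only. For miR-125 they had 133 reads, near the minimum, or 85.3 per 1000 of its 1559 reads, above the 49.9 of miR-9c. For miR-184 they stood at 1.05 per 1000 and for miR-8 at 0.201. Both genotypes listed them for miR-92b, higher in mutants at 3.76 against 2.98, and for miR-281-5p and miR-263a, lower in mutants. A loss of bases 1 and 2 was listed for 4 of 45 other microRNAs in mutants and 9 of 45 in heterozygotes, with the highest proportion for miR-2a/2b at 58.7 per 1000 in mutants and 54.6 in heterozygotes. Of the 45, 31 have a main form of at least 22 nt, from which such a loss stays within the listed lengths. For the others it can be listed only from longer forms, as it was for miR-989 and miR-92b, whose main forms have 21 nt. For miR-9c itself, single changes at base 8 did not follow the 5′ pattern: 22 nt T8G sequences stood at 1.11 per 1000 miR-9c reads in mutants and 0.997 in heterozygotes, and T8A at 1.08 in mutants and 0.935 in heterozygotes.

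Traces of miR-9c were listed in 3 of the 10 immunoprecipitate libraries. In Piwi immunoprecipitates it had 513 reads in krimp mutant ovaries, 396 of the 22 nt form and 117 of the 21 nt form, and 182 reads in heterozygous ovaries, all of the 22 nt form. This was 32.6 reads per 1000000 listed reads (RPM) in mutants and 9.67 in heterozygotes, a ratio of 3.37 (2.85 to 3.99). With every unlisted form set at 99 reads in both libraries the ratio was 1.34. The 21 nt form was not listed in heterozygotes and could hold up to 99 reads there, so the 22 nt form, listed in both, gives the like comparison. It was 2.60 times as high in mutants (2.18 to 3.10). The direction in the Piwi libraries was opposite to that in total RNA.

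Relative to total RNA of the same genotype, miR-9c was 368-fold lower in the mutant Piwi library and 2505-fold lower in the heterozygous one. MicroRNAs as a class were 0.0525% of listed reads in the mutant Piwi library, 523-fold below its total RNA, and 0.0249% in the heterozygous one, 1506-fold below. miR-9c made 6.21% (5.70 to 6.75%) of microRNA reads in the mutant Piwi library, where it ranked 6 among 14 listed, and 3.89% (3.35 to 4.48%) in the heterozygous one, where it ranked 9 among 14. The level of microRNAs as a class thus moved with that of miR-9c between the Piwi libraries. By share of microRNA reads the miR-9c log2 ratio between them was 0.67, which sets 2 forms in mutants against 1 in heterozygotes. The 21 nt form, not listed in heterozygotes, could make up to 2.07% of microRNA reads there, so 0.67 is not a like comparison. No other cluster or family member was listed in either Piwi library. At their proportions to miR-9c in total RNA each would fall under 100 reads there, so this absence says little.

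Neither Aub library listed miR-9c. A single unlisted sequence could have up to 18.4 RPM in the krimp mutant Aub library and 24.8 in the heterozygous one. The heterozygous AGO3 library, with a limit of 12.7 RPM, listed 8 microRNAs but not miR-9c. Its limit and that of the heterozygous Aub library lie above the 9.67 RPM of the heterozygous Piwi library. By share of listed reads these absences therefore say little. The AGO3 library had 3341 microRNA reads and the heterozygous Piwi library 4678. A single unlisted sequence could make up to 2.88% of microRNA reads in the AGO3 library, against 3.89% for miR-9c in the Piwi library. The AGO3 libraries of aub mutant ovaries, with a limit of 21.6 RPM, and of OregonR ovaries, with a limit of 122 RPM, both listed 0 microRNAs. One label of the krimp mutant Aub library also says control, but its title and genotype say mutant, and no value of miR-9c rests on it.

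In krimp knockdown OSC, which have no germline cells, the myc-AGO3 library listed miR-9c with 331 reads, 209 of the 22 nt form and 122 of the 21 nt form. That was 848 RPM and 1.73% (1.55 to 1.93%) of 19123 microRNA reads, rank 13 among 18 listed microRNAs. miR-9b exceeded miR-9c there with 542 reads, unlike in ovary total RNA. miR-9a, miR-306 and miR-79 were not listed there, where the limit for 1 sequence is 254 RPM. The myc-Aub and myc-Piwi libraries did not list miR-9c, but their limits of 853 RPM for myc-Aub and 643 RPM for myc-Piwi are close to the level in the myc-AGO3 library, so a difference was not detectable at this depth. Per the labels, the myc-Aub and myc-AGO3 proteins were precipitated with Aub and AGO3 antibodies and myc-Piwi with a myc antibody.

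**Figure D4:**
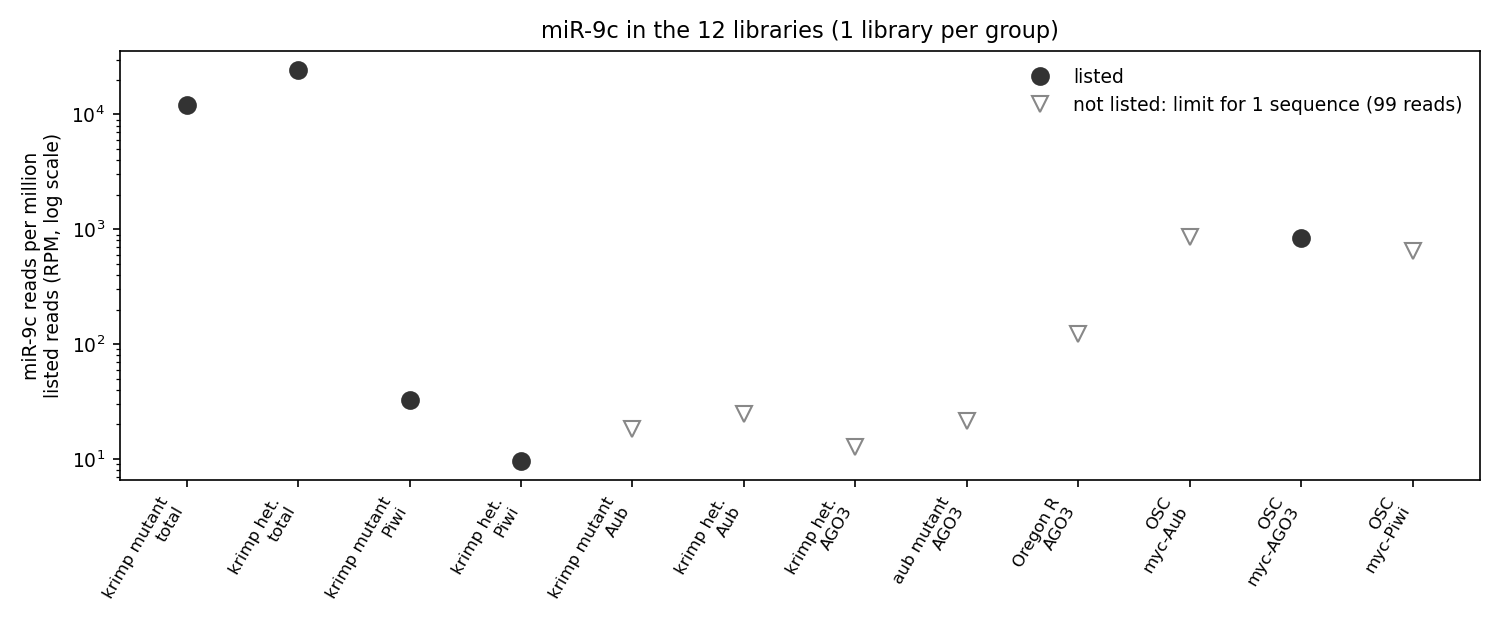
miR-9c reads per 1000000 listed reads (RPM, log axis) in each of the 12 libraries, 1 per group; filled circles are listed values and open triangles the limit that 99 reads of 1 unlisted sequence would give. Total RNA stands at 11989 in the krimp mutant and 24221 in heterozygotes, the Piwi libraries at 32.6 in the krimp mutant and 9.67 in the heterozygote, and the OSC myc-AGO3 library at 848.

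The microRNAs with the profile most like that of miR-9c were named by the lowest root mean square difference in log2 share of microRNA reads, each profile centred on its mean, over the 5 libraries that list miR-9c. Only 7 other microRNAs were listed in all 5 libraries, so the choice is narrow. miR-33 was closest at 0.51, followed by miR-275 at 0.91, bantam, a growth regulator, at 0.97, miR-276a at 1.04 and miR-92b at 1.13. miR-33 had 1.92% of microRNA reads in mutant total RNA and 3.34% in heterozygous total RNA, and 1.79% in the mutant Piwi library and 3.04% in the heterozygous one. By share of microRNA reads it was thus lower in mutants in both kinds of library, whereas miR-9c was higher in the mutant Piwi library. The miR-9c share there includes its 21 nt form, which the heterozygous Piwi library did not list. With 8264 microRNA reads in the mutant Piwi library and 4678 in the heterozygous one, miR-33 stands close to the minimum of 100 reads. MicroRNAs were 0.0525% of listed reads in the mutant Piwi library and 0.0249% in the heterozygous one. By share of listed reads the contrast therefore does not hold.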

How the data were processed

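Each of the 12 deposited files holds distinct small RNA sequences with read counts, deposited by the authors as whole numbers without normalization. Each file lists sequences of 20 to 30 nt with at least 100 reads. Per the labels' protocols, RNA was extracted with ISOGEN, Piwi-family proteins were immunopurified, and libraries of gel-selected RNA were made (TruSeq Small RNA kit). The genome build was dm3, per the submitters' processing notes; the aligner is not given in the sources used here.

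Listed reads ran from 116014 to 24979879 per library, which sets the 99-read limits. Reads were assigned by an exact 18 nt prefix, except those of miR-9a and miR-9b. Prefixes of 64 other microRNA names were written from general knowledge, since the planned reference table of mature microRNAs was not used here. miR-9a and miR-9b were found by the leading 8 bases they share with miR-9c, then base 9, and bases 13 to 18 of miR-9c further on. Of these 67 names, miR-9c included, 55 were listed in some library, and 63 matched a microRNA symbol in the gene table. Shares of microRNA reads cover these names only. The named microRNAs are miR-9c, its family, its cluster and the 5 closest profiles. Others at least 2-fold lower or named for a 5′ variant were added, chosen after their values were seen. The opposite arms were not analysed here. The members and lists were chosen with earlier results of these data known. Recovery of set log2 ratios was tested for abundant microRNAs on counts simulated from the heterozygous total library. The same assignment of reads was used throughout, so the prefix and 5′ variant matching was not tested. Python 3.11.15, numpy 2.4.6, scipy 1.17.1 and matplotlib 3.10.9 were used.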

Additional observations from a re-analysis of the deposited data

How the results depend on the processing

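The lower share of miR-9c in krimp mutant total RNA, a log2 ratio of -1.01, kept its direction under every alternative tried. It was -1.01 with a 16 nt and with a 20 nt prefix. It was -0.87 for the 22 nt form alone, -1.03 with 1 mismatch, -0.98 without 2S rRNA, -1.16 among reads of 20 to 23 nt and -1.05 with 1 minimum share for both libraries. Of microRNA reads it was -0.57. Alternatives chosen after seeing the data gave -1.11 with the 5′ variants included and -0.73 of microRNA reads other than miR-318 and miR-9c.

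The share of 22 nt reads was 7.11 points higher and the mean length 0.0635 nt higher in mutants, also with 1 minimum share. With each sequence counted once, both turned, to -3.01 points and -0.0188 nt, where 14 mutant and 19 heterozygous forms weigh equally. The log2 ratio of the Piwi libraries, 1.75, was 0.67 of microRNA reads and 0.42 with unlisted forms at 99 reads. The distance of miR-9c from the median microRNA, -0.77, was -0.757 among those with at least 1000 reads. The log2 ratio of the 5′ variants, -3.96, was -3.08 with unlisted variants at 99 reads.

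No paired analysis was possible because each group had 1 library. Leaving out a replicate was not possible either, and the alternative that keeps forms matching the hairpin was not run, since no hairpin sequence was used. Depth limits forms under 100 reads, which are not seen in any library.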

Other observations

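Single base changes within the leading 18 nt of miR-9c, other than a lost base, were listed as 5 sequences with 957 reads in krimp mutant total RNA and as 20 sequences with 6956 reads in heterozygous total RNA. This was 3.86 per 1000 miR-9c reads in mutants and 11.5 in heterozygotes, but with the 15 sequences not listed in mutants set at 99 reads, an alternative chosen after seeing the data, it was 9.84 in mutants, at least 1.17-fold lower. C2T was the most frequent, with 2294 reads in heterozygotes and none listed in mutants. C2T, T1C with 392 and T1G with 159 heterozygous reads were also counted above among sequences with another 5′ end, so the sets overlap. The 5 changes listed in mutants, T8G, T8A, T8C, T10G and T11G at 22 nt, had 123 to 276 reads there and 264 to 603 in heterozygotes. Per 1000 miR-9c reads they ran from 0.496 to 1.11 in mutants and from 0.436 to 0.997 in heterozygotes, and 4 of the 5 were slightly higher in mutants. G15T had 341 reads in heterozygotes and was not listed in mutants. No such sequence was listed in an immunoprecipitate library, where at these proportions to miR-9c each would fall under 100 reads.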
